A study of Rattus norvegicus with 24 samples.

Results

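Rats with collagen-induced arthritis (CIA) that had received no active therapy were compared with healthy rats (NOCIA, NORA in the labels) at 34 days after therapy began. The CIA side held the 2 ANE and the 2 PLA arrays of that day, the healthy side the 2 NOCIA arrays, and these 6 of the 24 arrays of the series were taken by their titles. All rats were female Wistar rats, and each array held RNA of peripheral blood mononuclear cells (PBMC) from 1 rat. The other groups of the series were NOCIA and CIA rats at baseline, all groups at 1 hour, and the treated arms MS (needle stimulation, AP in the labels) and MTX (methotrexate) at 34 days.

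CIA had been induced by bovine type II collagen in Freund's adjuvant with a booster, and therapy began at the onset of arthritis. ANE rats had no therapy and were put under isoflurane when blood was drawn. PLA rats had weekly saline injections into the peritoneum, the placebo for methotrexate, and were put under ether. The anaesthetic of the NOCIA rats is not given in the sources used here. NOCIA rats were not immunised, so collagen, adjuvant and arthritis cannot be told apart.

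In this model of rheumatoid arthritis, an immune response to cartilage collagen inflames the joints, driven by T cells, antibodies and myeloid cells. PBMC are the lymphocytes and monocytes of blood left after a density gradient, with platelets, a few young red cells and some granulocytes carried along. They show which immune cells circulate and what state they are in, and only in part what happens in the joint.

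Levels are log2 values normalized with RMA, in which each step of 1 is a doubling, and differences are log2 CIA controls minus NOCIA with their standard error (SE) from limma, n = 4 against 2 arrays. The labelled cells carried their markers in all 6 arrays, with the T cell gene Cd3e between 11.06 and 11.62, the monocyte gene Lyz2 between 14.29 and 14.44 and the B cell gene Ms4a1 between 8.21 and 10.32. Platelet Pf4, at 14.22 to 14.55, and haemoglobin Hbb, at 14.72 to 14.84, were near the top of the scale, which ends at 15.02. In bulk RNA, fewer cells of a type and less RNA per cell cannot be told apart. The 3' minus 5' difference of Actb, a sign of RNA integrity, was 0.65 and 0.64 in NOCIA and 0.39 to 0.55 in the CIA controls, and that of Gapdh ran from 0.01 to 0.11 over the 6. Its part in the results was not tested.

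Of 20690 probe sets, 761 (3.68%) differed between the CIA controls and NOCIA at a Benjamini-Hochberg adjusted p under 0.05 in limma, here named called. Of these 260 were higher (1.26%) and 501 lower (2.42%) in CIA, for 188 and 339 named genes. The median difference was 0.85 over the higher and -1.04 over the lower ones, and 78 and 275 of them were over 2-fold. At the thresholds of the study, unadjusted p under 0.05 and over 2-fold, 590 passed (2.85%), 163 higher (0.788%) and 427 lower (2.06%). The arrays of the 2 sides did not overlap in 42.2% of all probe sets, and in 259 of the 260 called higher and 500 of the 501 called lower. The NOCIA group had 2 rats, and the count depended on both. Without NOCIA replicate 1, 5 probe sets were called, without replicate 2, 124, and without a CIA control array 156 to 402. Of the 501 lower probe sets 18 passed the filter on dim probe sets only through NOCIA, where they are high, and 0 of the 260 higher, which leaves 743. An exact permutation test of 4 arrays against 2 has 15 splits and cannot go below p = 0.0667. The calls therefore rest on limma's estimate of the spread, made here over the 12 groups. The count moved with how that spread was estimated, and was 4305 with only the groups compared in the fit and 5032 with arrays weighted by their fit.

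The number of calls differed between the arms. ANE against the same NOCIA arrays gave 841 called probe sets (4.06%), 308 higher and 533 lower, and PLA against them 16 (0.0773%), 1 higher and 15 lower. Without NOCIA replicate 1 these counts were 6 and 3. Over the 260 probe sets called higher with both arms, the median was 0.99 in ANE and 0.71 in PLA, and over the 501 lower ones -1.15 and -0.89. All 761 had the same sign in both arms, which the pooled call favours. The contrasts of ANE and PLA share the NOCIA arrays. ANE tested directly against PLA gave 0 called probe sets in limma, with 635 at an unadjusted p under 0.05, 85 called with array weights and 13 when only the groups compared were fitted.

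The NOCIA rats of that day stood apart from every other group of the series in the called probe sets. In 717 of the 761 called probe sets (94.2%) the NOCIA mean at 34 days was the outermost of all 12 group means on its side, against 29.2% of all probe sets. Both NOCIA arrays lay beyond all 22 other arrays in 130 of the 260 higher and 436 of the 501 lower ones, against 9.79% of all probe sets. The calls were made on these same 2 arrays, so that these shares describe them and test nothing. Healthy rats at baseline, like every other group, lay on the CIA side. Their median was 1.19 above the 34-day NOCIA mean over the higher set and -1.21 over the lower set. The sets were called on the 34-day NOCIA arrays, which favours this for any other group, so it too is a description. MS at 34 days stood nearest to NOCIA over the higher set, at 0.26, and MTX at 34 days nearest over the lower set, at -0.70. The 2 MS arrays were unlike each other, so their mean is a poor guide. They lay at 125.2 and 15.4 on the first principal component. The standard deviation of their difference over probe sets was 0.84, beside 0.31 for the NOCIA arrays at 34 days. On the second principal component of all 24 arrays (15.5% of the variance), NOCIA at 34 days lay at 53.7 and 42.1, NOCIA at baseline at -37.1 and -38.6, ANE at -15.4 and -14.4 and PLA at 14.7 and 10.1.

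**Figure D1:**
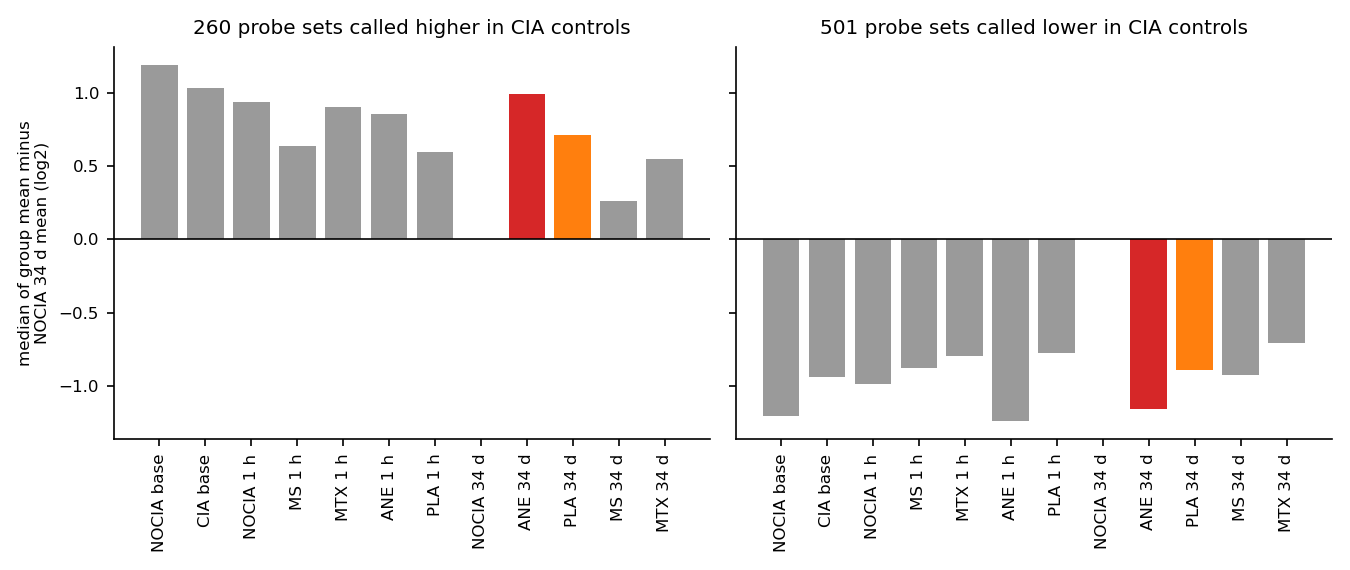
Median over the called probe sets of each group's mean minus the NOCIA mean at 34 days (log2 units), for the 260 called higher (left) and the 501 called lower (right) in the CIA controls; bars are 12 groups of 2 arrays, with ANE and PLA at 34 days in colour. Every other group, NOCIA at baseline included (1.19 and -1.21), lies on the same side as the CIA controls, which the choice of the sets favours.

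Before therapy 139 of the 761 called probe sets had a difference from healthy rats of the same sign as at 34 days. These signs are a description, since the baseline differences were small beside their error. At baseline CIA against NOCIA gave 1 called probe set of 20690 (0.00483%), in Sik1. Over the 34-day sets its medians were of the opposite sign, -0.17 over the higher and 0.26 over the lower ones, beside a median SE of 0.27 over all probe sets. The 34-day difference minus the baseline difference, which share no array, was itself called for 290 probe sets (1.4%), among them 54 of the 260 higher and 175 of the 501 lower ones in the same direction. The 260 and 501 were chosen by the 34-day difference, which favours such overlap. The 290 became 3 to 6 without any single baseline array, 7 without NOCIA replicate 1 and 126 without NOCIA replicate 2 at 34 days, and 36 to 153 without a CIA control array.

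Mid2, a ubiquitin ligase of microtubules, had the smallest adjusted p of the 24 genes named by the size of their difference. It measured 4.58 and 4.66 in ANE, 5.06 and 5.05 in PLA and 6.55 and 6.56 in NOCIA. NOCIA was thus above both arms without overlap, and also above the 4.47 to 5.33 of the 18 other arrays. Only 7 of the 22 arrays other than NOCIA were above the level of the filter on dim probe sets, so Mid2 was dim outside NOCIA. The difference was -1.72 ± 0.11 (SE), a 3.29-fold lower level in CIA (limma adjusted p = 2.16e-06), and it was called in ANE (-1.94) and in PLA (-1.50) alone. The call held with each of the 6 arrays left out. Grhl1, a transcription factor best known from epithelia, was at 3.49 and 3.69 in ANE, 4.32 and 3.81 in PLA and 5.99 and 5.35 in NOCIA (-1.84 ± 0.19). Its 22 other arrays, at 3.49 to 4.39, were all below the filter on dim probe sets, so that it was tested only because NOCIA was high, and its value is a description with no test.

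Rictor, the scaffold of the second complex of the kinase mTOR, fell most by this rule. Its probe set read 4.31 and 4.38 in ANE, 5.53 and 5.34 in PLA and 7.04 and 6.65 in NOCIA, so ANE lay lowest, PLA between and NOCIA highest. It too was dim, with 10 of the 22 arrays other than NOCIA above the filter level. The difference was -1.96 ± 0.34 (adjusted p = 0.00864), while a second Rictor probe set gave -0.94 and was not called. Snap23, a SNARE protein of granule release, was at 9.04 and 8.80 in ANE, 9.74 and 9.50 in PLA and 11.03 and 10.94 in NOCIA (-1.71 ± 0.22, adjusted p = 0.00212). The order of the groups was the same as for Rictor. A second Snap23 probe set gave -0.77 with no call.

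Jun, Fhl2, Zbtb10, Edc3 and Armcx5 were further genes of the lower end. Jun, a subunit of AP-1, measured 8.93 and 9.16 in ANE, 9.89 and 9.58 in PLA and 11.38 and 11.13 in NOCIA. It fell by 1.86 ± 0.42 (adjusted p = 0.0267), and both other Jun probe sets were called too, at -1.61 and -1.52. Its call was lost with any of the 6 arrays left out. Healthy rats at baseline had 8.97, as low as ANE, and the 34-day difference minus the baseline difference was -3.08 ± 0.65 (adjusted p = 0.0342). Fhl2, a LIM-domain cofactor of transcription factors, fell by 1.68 ± 0.30 (adjusted p = 0.0098), and its second probe set by 1.57, also called. The zinc finger repressor Zbtb10 fell by 1.75 ± 0.43 (adjusted p = 0.0356), with NOCIA at 6.72 and 6.05 above the highest CIA array at 5.19. It was dim, with 8 of the 22 arrays other than NOCIA above the filter level. Edc3, which helps strip the cap off mRNA before decay, fell by 1.82 ± 0.30 (adjusted p = 0.00694), and Armcx5, of the armadillo-repeat family, by 1.74 ± 0.30 (adjusted p = 0.00845).

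**Figure D2:**
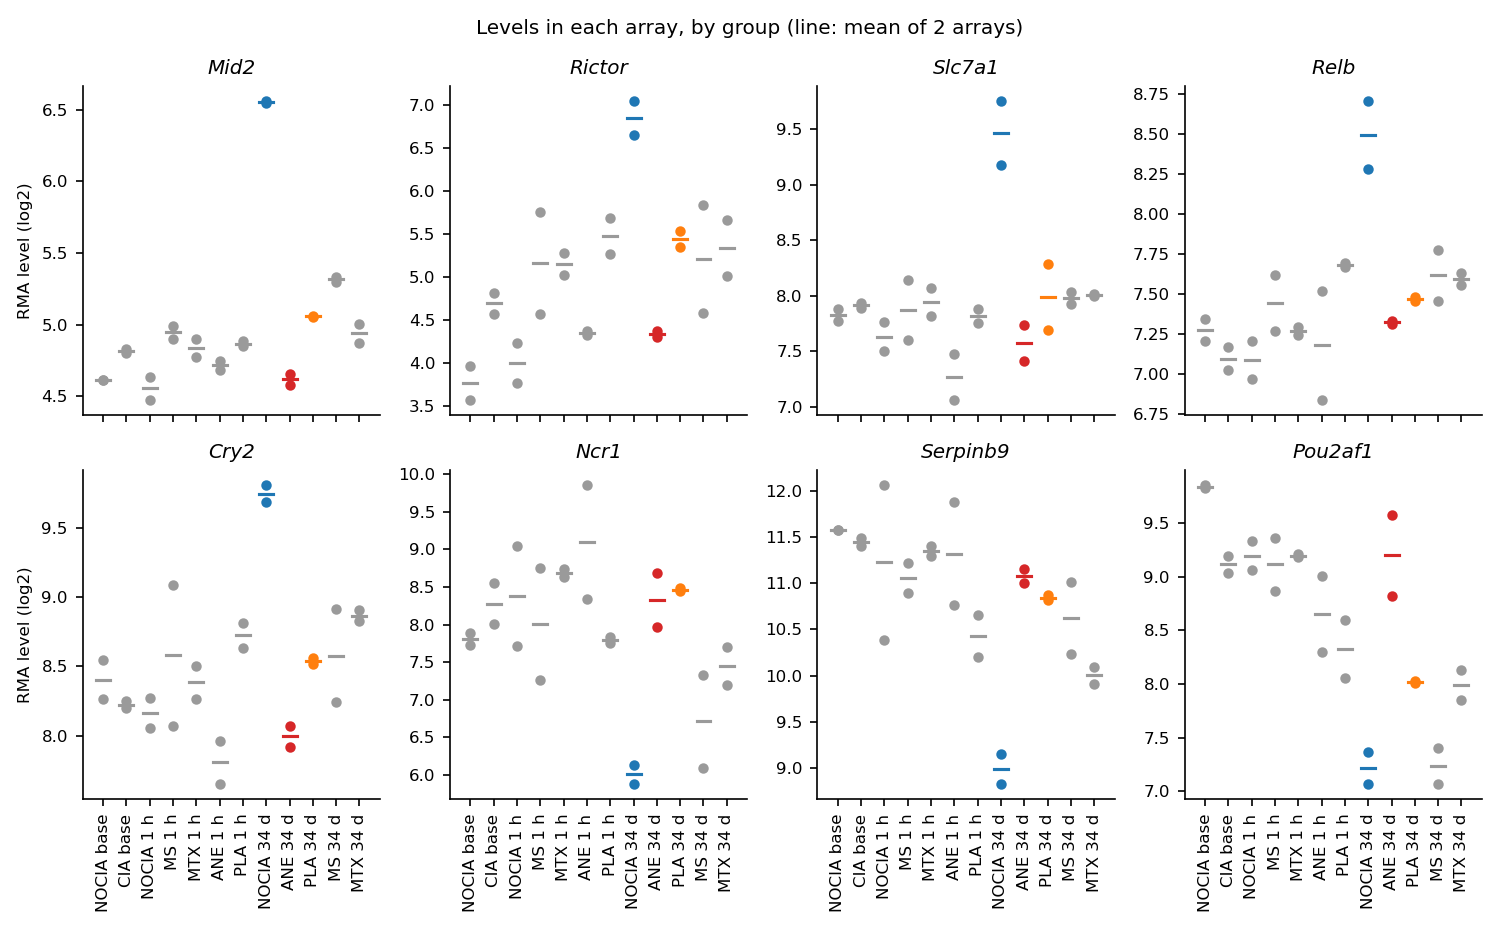
RMA level (log2) of 8 genes in every array, by group; points are arrays, lines the mean of the 2 arrays, with NOCIA at 34 days in blue, ANE in red and PLA in orange. In Mid2, Rictor, Slc7a1, Relb and Cry2 both NOCIA arrays at 34 days lie above all others, and in Ncr1 and Serpinb9 below the 4 CIA controls.

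At the upper end the largest differences of the genes named by size were those of Ncr1, Glce and Serpinb9. Ncr1, the activating receptor NKp46 of natural killer cells, was at 8.69 and 7.96 in ANE, 8.48 and 8.44 in PLA and 5.88 and 6.14 in NOCIA. The arms overlapped and NOCIA lay below both, a difference of 2.39 ± 0.48 or 5.24-fold (adjusted p = 0.0157). The call was lost without NOCIA replicate 1, NOCIA replicate 2, ANE replicate 1 or PLA replicate 2. MS replicate 1 at 34 days, at 6.09, lay between the NOCIA arrays. Serpinb9, which shields cells from granzyme B, was at 11.15 and 11.00, 10.87 and 10.81, and 8.83 and 9.15 in ANE, PLA and NOCIA (1.97 ± 0.37, adjusted p = 0.0124). Its second probe set was called as well, at 1.74, and NOCIA was below the 9.91 to 12.06 of the 18 other arrays. Gimap4, a GTPase of lymphocytes, rose by 1.82 ± 0.38 (adjusted p = 0.0199), with ANE at 9.58 and 9.48, PLA at 8.83 and 9.07 and NOCIA at 7.37 and 7.48. It was higher still, at 10.51, in healthy rats at baseline.

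The other genes of the upper end had varied roles and read higher in ANE than in PLA, a difference between arms that was not called for any probe set. Glce, an enzyme that shapes heparan sulfate, was at 7.23 and 7.59 in ANE, 6.24 and 6.42 in PLA and 4.86 and 4.51 in NOCIA (2.19 ± 0.35, adjusted p = 0.00694). Rps6ka3, a kinase downstream of ERK, rose by 1.84 ± 0.29 (adjusted p = 0.00613) at one probe set, while its second gave -0.03, so that the probe sets disagree. Pakap, a gene of scaffold proteins, also rested on 1 probe set, at 1.58 ± 0.39 (adjusted p = 0.0377), where 3 others lay between 0.02 and 0.28. Cxxc5, a zinc finger protein, had the smallest error of this side, at 1.53 ± 0.19 (adjusted p = 0.00197), with a second probe set at 1.24 that was called. Bcl11a, a transcription factor that B cells need, rose by 1.58 ± 0.29 (adjusted p = 0.0113), also with a called second probe set at 1.08. Cpox, of haem synthesis, Mapre3, which binds growing microtubule ends, Tmpo, of the nuclear lamina, and the unnamed locus LOC100909928 rose by 1.56 to 1.78. A second probe set gave 0.31 for Tmpo and 0.54 for LOC100909928, neither called. The calls of Cpox and Tmpo were lost without NOCIA replicate 1, NOCIA replicate 2 or PLA replicate 2. That of Tmpo was also lost without ANE replicate 2. The calls of Pakap and Mapre3 were lost with any of the 6 arrays left out.

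In PLA alone, the 16 called probe sets covered 12 named genes. Beside Mid2, Grhl1, Cars1 and Slc7a1 they held Gpam, of lipid synthesis (-1.06), the sorting nexin Snx9 (-1.36), Nol10 (-1.12) and Foxi1 (-1.47), with Zscan22, Sestd1 and Ankrd13c. The only one higher was Idh1, the cytosolic isocitrate dehydrogenase that makes NADPH, at 1.36 in PLA and 1.53 with both arms. These genes were named after their values were seen. Grhl1 passed the filter on dim probe sets only through NOCIA, so its place here is a description with no test. For the genes named only here this is not given. With the stricter filter the 16 became 3.

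NF-kB is a family of transcription factors made of pairs of Rela, Relb, Rel, Nfkb1 and Nfkb2. It is held in the cytoplasm by inhibitors such as Nfkbia, switches on inflammatory genes when freed, and raises its own inhibitors. The NF-kB list held 14 measured genes, of which 4 fell (28.6%, beside 3.74% of the 11057 genes read at 1 probe set called, 1.51% higher and 2.23% lower) and 0 rose. Its median was -0.69, beside 0.05 over all genes, -0.94 in ANE and -0.42 in PLA. In 9 of the 14 both NOCIA arrays lay above all 4 CIA arrays (20% of all probe sets did so).

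The members that fell belong to the branch of Relb and Nfkb2 and to the brakes of the pathway. Relb read 7.33 and 7.31 in ANE, 7.45 and 7.48 in PLA and 8.71 and 8.28 in NOCIA. The arms lay close together and NOCIA stood above every other array of the series, a difference of -1.10 ± 0.19 (adjusted p = 0.00826). Nfkb2, its partner, was at 7.69 and 7.74, 8.21 and 8.13, and 9.31 and 8.81 in ANE, PLA and NOCIA (-1.12 ± 0.25, adjusted p = 0.0242), a call lost with any of the 6 arrays left out. Birc3, a ubiquitin ligase that acts on the kinase of this branch, was at 8.10 and 8.56, 8.89 and 8.93, and 10.36 and 9.71 (-1.42 ± 0.28, adjusted p = 0.0151). Tnip1, a binding partner of the inhibitor Tnfaip3, fell by 1.04 ± 0.19 (adjusted p = 0.0118), with NOCIA at 11.06 and 10.65 above the highest CIA array at 10.17. For the inhibitor Nfkbia the value was -0.17 ± 0.45 (adjusted p = 0.904) and for Nfkb1 -0.09 ± 0.23 (adjusted p = 0.898), and in both the groups overlapped. Bcl3, a nuclear partner of NF-kB, had the lowest value of the list, -1.60 ± 0.47, and did not pass (adjusted p = 0.073). None of the 4 calls held without NOCIA replicate 1, where the median of the list was -0.41.

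Promoters of 3 members are shown, 2 that fell and the inhibitor that did not pass, to set the letters of a kappaB site beside their values. They are RefSeq windows of the build GRCr8, each of 300 bases around the start of the gene, at chr1:255108124-255108423 on the plus strand for Nfkb2, chr10:39584912-39585211 on the minus strand for Tnip1 and chr6:78597023-78597322 on the minus strand for Nfkbia. Capitals mark a match to one form of the kappaB site, read as 3 G, any 2 bases, 3 T and 2 C, searched on both strands and held by 1.53% of all 33465 promoter windows.
Nfkb2: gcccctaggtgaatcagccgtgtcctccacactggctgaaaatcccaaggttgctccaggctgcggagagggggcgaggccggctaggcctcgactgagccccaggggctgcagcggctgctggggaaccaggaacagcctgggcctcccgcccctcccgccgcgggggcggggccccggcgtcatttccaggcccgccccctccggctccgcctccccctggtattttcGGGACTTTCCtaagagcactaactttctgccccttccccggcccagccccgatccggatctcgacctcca
Tnip1: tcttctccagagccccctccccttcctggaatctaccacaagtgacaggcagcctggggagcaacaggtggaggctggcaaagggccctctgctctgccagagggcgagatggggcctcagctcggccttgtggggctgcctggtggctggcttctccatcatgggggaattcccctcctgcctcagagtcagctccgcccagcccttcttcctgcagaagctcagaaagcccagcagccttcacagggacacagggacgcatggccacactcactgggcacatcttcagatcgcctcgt
Nfkbia: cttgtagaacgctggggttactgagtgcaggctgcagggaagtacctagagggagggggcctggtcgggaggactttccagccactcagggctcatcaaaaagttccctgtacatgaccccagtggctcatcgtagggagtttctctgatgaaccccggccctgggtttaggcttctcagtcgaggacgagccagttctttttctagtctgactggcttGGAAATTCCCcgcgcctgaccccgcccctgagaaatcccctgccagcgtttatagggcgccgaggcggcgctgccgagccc
Nfkb2 and Nfkbia hold 1 match each to this form and Tnip1 none. Other forms of the site were not searched, so a window without a match may still hold one. The Tnip1 window holds the run gggaattccc, which the form searched leaves out. Of the 14 members, 11 had a window and 5 held a match, Nfkb1, Nfkb2, Nfkbia, Nfkbiz and Tnfaip3, of which Nfkb2 was called and the others were not. A match is a run of letters and not a bound site.

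Cytokine and chemokine genes, many of them textbook targets of NF-kB, gave no call. Of 20 measured members of the Inflammatory list 0 were called, 16 had a difference above 0 (56.8% of all genes did), and the median was 0.48, 0.31 in ANE and 0.66 in PLA. The cytokine Tnf was at 7.26 and 7.29 in ANE, 6.97 and 6.79 in PLA and 6.23 and 6.18 in NOCIA, without overlap, yet at 0.87 ± 0.65 it did not pass (adjusted p = 0.559), and a second probe set gave 0.13. Il1b, another cytokine, gave 0.01 ± 0.90, with the ANE arrays at 10.27 and 11.84 and PLA at 12.35 and 12.30 on either side of NOCIA at 11.94 and 11.42. The neutrophil attractant Cxcl1 was at 9.38 and 9.75, 10.22 and 8.86, and 8.24 and 8.03 (1.42 ± 0.89, adjusted p = 0.461). Cxcl1 was the only member whose 34-day difference differed from that at baseline, by 6.27 ± 1.36 (adjusted p = 0.0365), since baseline CIA stood -4.85 against baseline NOCIA. Cxcl2, of the same family, gave 0.57 ± 0.76 with overlap. On the other side of 0 were the chemokine Ccl3 (-0.95 ± 0.37, adjusted p = 0.175) and the adhesion receptor Icam1 (-0.65 ± 0.46, adjusted p = 0.526), with no overlap in either.

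**Figure D3:**
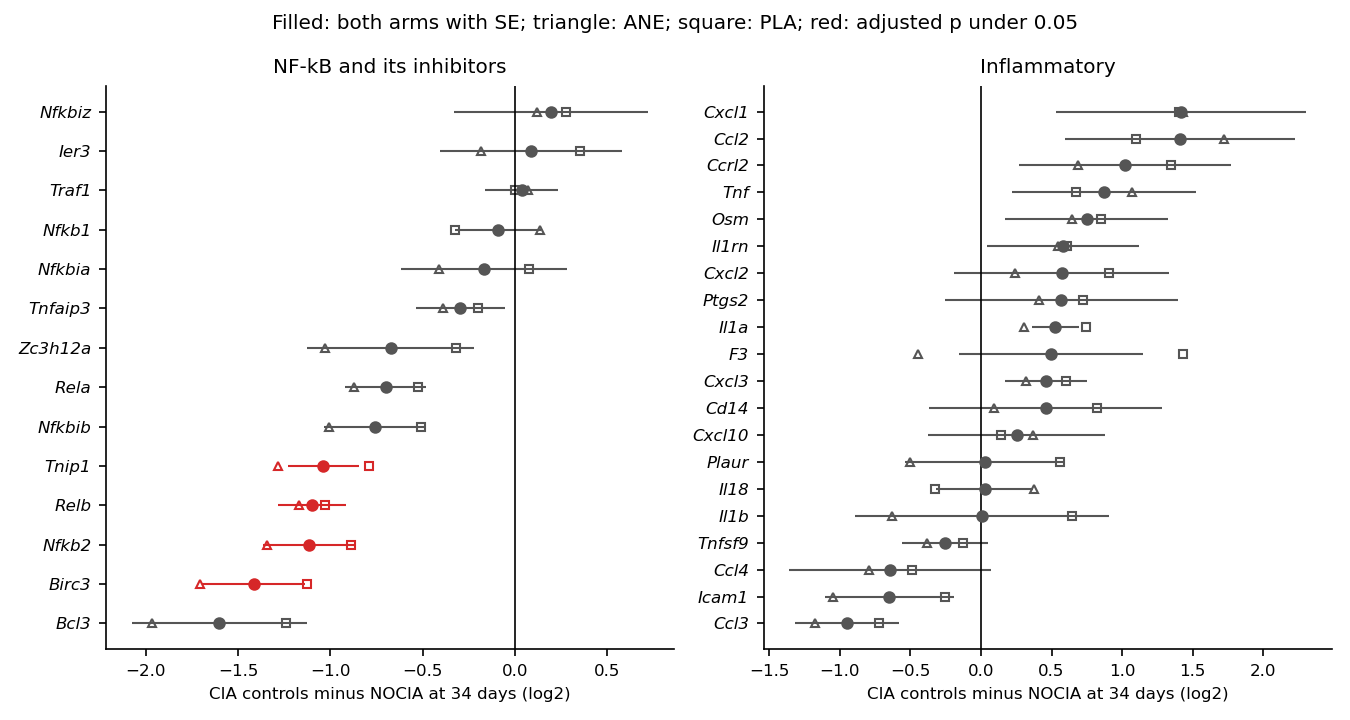
Difference of the CIA controls from NOCIA at 34 days (log2) for each measured member of the NF-kB list (left) and the Inflammatory list (right); filled points are both arms with their SE, triangles ANE and squares PLA, and red marks adjusted p under 0.05. Relb, Nfkb2, Birc3 and Tnip1 are red, and no Inflammatory gene is.

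Of the genes that cells raise when amino acids run short or proteins misfold, 5 fell. This response runs through the transcription factor Atf4, which raises amino acid transporters, tRNA synthetases and the factors Ddit3 and Trib3. The list was drawn up after the values were seen, so its counts are a description. Of 27 measured genes 5 fell (18.5%, beside 2.23% of all genes lower) and 0 rose, with a median of -0.39 that was nearly the same in ANE (-0.42) and PLA (-0.38). Slc7a1, the carrier of arginine and lysine, was at 7.41 and 7.74 in ANE, 8.29 and 7.69 in PLA and 9.76 and 9.18 in NOCIA (-1.69 ± 0.21, adjusted p = 0.00197), and a second probe set was called at -1.29. NOCIA was above the 7.06 to 8.14 of the 18 other arrays. Ddit3, also called CHOP and a mediator of cell death under stress, was at 8.22 and 8.04, 8.82 and 8.78, and 10.27 and 9.85 (-1.60 ± 0.30, adjusted p = 0.0133). Chac1, which degrades glutathione, fell by 1.12 ± 0.18 (adjusted p = 0.00694), the alanyl-tRNA synthetase Aars1 by 1.08 ± 0.19 (adjusted p = 0.00914) and Trib3 by 1.01 ± 0.23 (adjusted p = 0.0283). Cars1, the cysteinyl-tRNA synthetase, fell by 1.82 ± 0.22 (adjusted p = 0.00197) at 1 probe set, but 3 others lay between -0.39 and -0.09 without a call. The called probe set was dim, with 4 of the 22 arrays other than NOCIA above the filter level. Atf4 itself was at -0.34 ± 0.16 (adjusted p = 0.285), and Asns, the asparagine synthetase, at 0.58 ± 0.51, with PLA replicate 1 at 7.44 below both NOCIA arrays. All 5 calls were lost without NOCIA replicate 1.

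The Aars1 promoter is printed as the 1 called member of this list that holds the letters of an Atf4 response element. Capitals mark TGATGNAAT on either strand, which 1.09% of all windows hold, in RefSeq GRCr8 chr19:55908232-55908531 on the plus strand.
Aars1: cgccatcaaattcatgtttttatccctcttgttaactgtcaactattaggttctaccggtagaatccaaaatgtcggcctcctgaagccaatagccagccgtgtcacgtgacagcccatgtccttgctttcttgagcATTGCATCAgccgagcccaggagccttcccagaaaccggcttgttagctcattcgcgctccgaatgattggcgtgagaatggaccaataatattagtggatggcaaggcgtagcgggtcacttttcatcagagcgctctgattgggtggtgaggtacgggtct
Of the 25 members with a window, 2 held a match, Aars1 and Nupr1, and Nupr1 measured 0.19 ± 0.26.

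Natural killer and cytotoxic genes had the highest median of the 29 lists in the plot by arm, 0.86 over 15 measured members. In 12 of the 15 the 4 CIA arrays lay above both NOCIA arrays (22.2% of all probe sets did so). A difference above 0 was seen in 14, and Ncr1 alone was called (6.67%, beside 3.74% of all genes). The pore protein Prf1 was at 12.28 and 12.03 in ANE, 12.60 and 12.25 in PLA and 10.75 and 11.04 in NOCIA (1.40 ± 0.48, adjusted p = 0.122). Gzmb, the granzyme that kills target cells, was at 10.43 and 10.03, 11.17 and 10.57, and 8.57 and 9.15 (1.69 ± 0.65, adjusted p = 0.171). For the receptor Klrd1 the value was 0.74 ± 0.46 and for the granule protein Nkg7 0.86 ± 0.54, both without overlap. PLA stood above ANE in this list, with a median of 1.14 against 0.61. At baseline the median difference of CIA from NOCIA over the list was 0.16. ANE and PLA did not differ by a called probe set, so the order of the arms is a description.

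Of the B cell genes, more were called in ANE than in PLA, with no called difference between the arms. Over all 11057 genes 449 were called in ANE and 8 in PLA, so this order is not particular to the list. Of 9 measured members 2 rose (22.2%, beside 1.51% of all genes higher), 6 were higher without overlap (22.2% of all probe sets were), and the median was 0.67, with 1.28 in ANE, where 4 were called, and 0.31 in PLA, where 0 were. Pou2af1, a coactivator that B cells need, was at 8.82 and 9.58 in ANE, 8.03 and 8.01 in PLA and 7.07 and 7.37 in NOCIA (1.39 ± 0.24, adjusted p = 0.00914). Fcer2, the low-affinity receptor for IgE, was at 8.14 and 8.79, 7.85 and 7.74, and 6.72 and 6.67 (1.44 ± 0.33, adjusted p = 0.0287), with a second probe set at 1.08. The Fcer2 call was lost with any of the 6 arrays left out, and that of Pou2af1 without NOCIA replicate 1. Both arms lay above NOCIA in these genes, ANE farther. Ms4a1, the CD20 antigen, was at 9.68 and 10.32, 8.97 and 8.75, and 8.21 and 8.45 (1.10 ± 0.36, adjusted p = 0.101), and Cd79b, part of the B cell receptor, at 0.67 ± 0.31 (adjusted p = 0.27), with PLA at 8.56 and 8.49 beside NOCIA at 8.45 and 8.46. Ebf1, which sets B cell fate, went the other way at -0.59 ± 0.36 with overlap. At baseline the list stood at -0.65 in CIA, and healthy rats then had 9.84 for Pou2af1, above all 6 arrays here. The 34-day difference of Pou2af1 minus its baseline difference was 2.11 ± 0.37 (adjusted p = 0.0199).

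Ciita, the switch of the MHC class II genes, rose by 1.15 ± 0.25 (adjusted p = 0.0224) and by 0.71 at a second called probe set, with ANE at 7.90 and 8.29, PLA at 7.26 and 7.34 and NOCIA at 6.55 and 6.56. With 1 of the 6 arrays left out, the Ciita call at 1.15 held only without ANE replicate 1. The class II genes did not follow, with RT1-Da at -0.13 ± 0.33, Cd74 at 0.01 ± 0.34 and RT1-Db1 at 0.04 ± 0.33, all with overlap. RT1-Bb was low in ANE replicate 2 alone, at 6.02 against 9.90 to 10.68 in the other 5. Of 17 T cell genes 0 were called and 14 had a difference above 0, with a median of 0.25 that was 0.39 without NOCIA replicate 1. Cd3e gave 0.37 ± 0.36, Cd3d 0.24 ± 0.38 and Cd3g 0.20 ± 0.39, and the largest value was that of Bcl11b, a factor of T cell identity, at 1.18 ± 0.39 (adjusted p = 0.111).

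**Figure D4:**
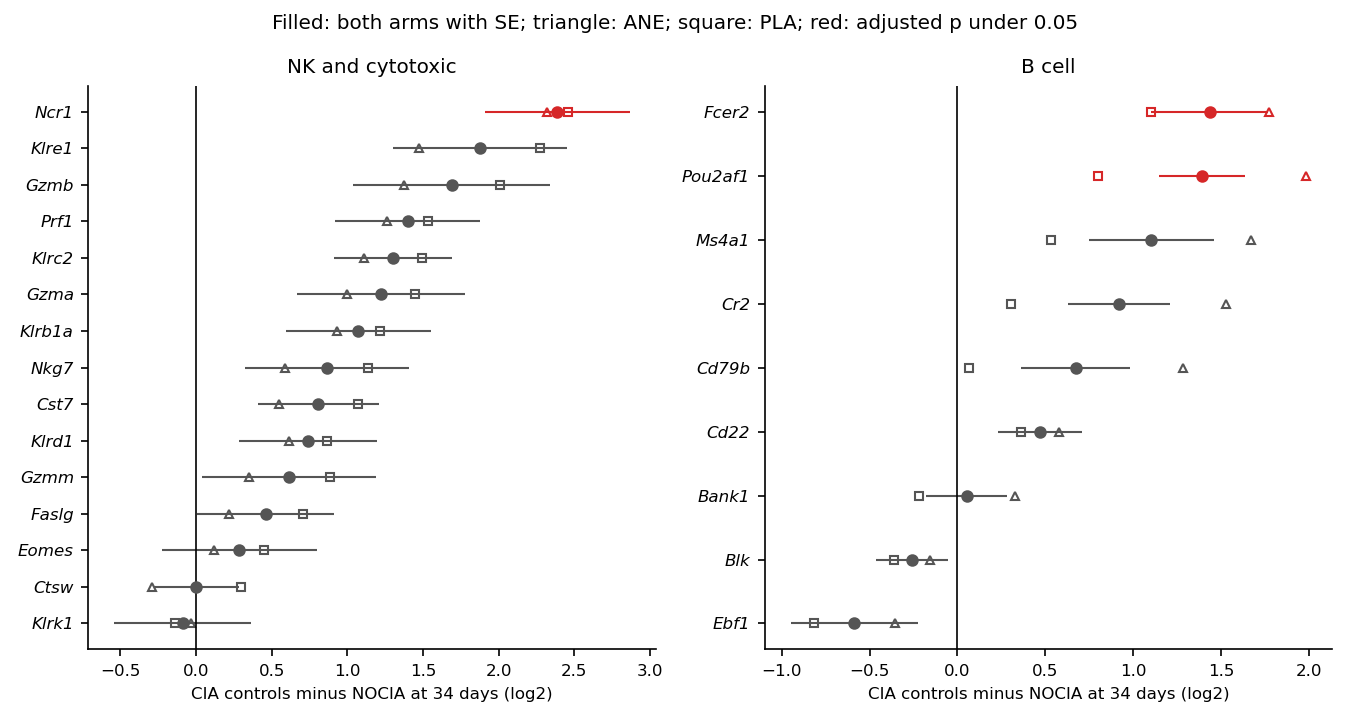
Difference of the CIA controls from NOCIA at 34 days (log2) for the natural killer and cytotoxic (left) and B cell (right) markers; filled points are both arms with their SE, triangles ANE and squares PLA, and red marks adjusted p under 0.05. Ncr1, Pou2af1 and Fcer2 are red, and most B cell triangles lie to the right of the squares.

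Receptors for antibody complexes, which link antibody to myeloid cells, were on the higher side without a call. Of 13 measured Fc receptor and complement genes 12 had a difference above 0 (56.8% of all genes did) and 7 were higher without overlap (22.2% of all probe sets were), with a median of 0.53, 0.51 in ANE and 0.55 in PLA. Fcgr3a, the activating receptor CD16, was at 10.22 and 10.02 in ANE, 10.43 and 9.84 in PLA and 8.35 and 9.52 in NOCIA (1.19 ± 0.49, adjusted p = 0.206). The inhibitory receptor Fcgr2b gave 0.66 ± 0.63 and C1qa, of the first complement component, 0.74 ± 0.62. Monocyte genes had a median of 0.32 with 0 of 15 called. Csf1r, the growth factor receptor of monocytes, gave 0.73 ± 0.28 (adjusted p = 0.175) and Cd14 0.46 ± 0.83, while Lyz2 gave 0.05 ± 0.35. Of the markers of neutrophils, which the gradient should remove, S100a8 gave -0.13 ± 0.83 and S100a9 -0.08 ± 0.73. S100a8 was at 11.00 and 11.91 in ANE, 10.79 and 11.71 in PLA and 11.72 and 11.25 in NOCIA, so that the rats of 1 arm differed more than the groups.

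Markers of carried-over cells stood as follows. Of 15 platelet genes 14 had a difference below 0, with a median of -0.48, which was -0.24 without ANE replicate 2, and 0 called. Itga2b, the platelet fibrinogen receptor, was at 12.92 and 12.46 in ANE, 12.69 and 12.31 in PLA and 12.98 and 13.17 in NOCIA (-0.48 ± 0.35, adjusted p = 0.543). Ppbp, a platelet chemokine, gave -0.32 ± 0.73, Itgb3 -0.36 ± 0.42 and Pf4 -0.15 ± 0.14. The mean level of the list ran from -0.71 to 0.19 in the CIA controls and from 0.01 to 0.18 in NOCIA, in log2 units around the mean of all 24 arrays. Erythroid genes had a median of 0.74, which was 0.02 without NOCIA replicate 1 and 1.59 without replicate 2. Alas2, of haem synthesis, was at 10.85 and 12.31 in these arrays against 11.52 to 13.01 in the CIA controls. The mast cell protease Cpa3 gave -1.78 ± 0.55 (adjusted p = 0.0878), at 7.14 and 8.25 in NOCIA and 5.35 to 6.33 in the CIA controls. The part of these cells in the other results was not tested.

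Of 13 measured clock genes Cry2 alone was called (7.69%, beside 3.74% of all genes), and 1 call does not set the list apart. A difference below 0 was seen in 10, and in 4782 of all 11057 genes. The clock is a loop in which Clock and Bmal1 raise the Per, Cry and Nr1d genes, whose products then shut it down. Cry2 was at 8.07 and 7.92 in ANE, 8.51 and 8.56 in PLA and 9.81 and 9.68 in NOCIA (-1.48 ± 0.24, adjusted p = 0.00691), though a second probe set gave -0.15. Nr1d2, a repressor known as REV-ERB beta, was among the 12 lowest genes at a probe set that passed the filter only through NOCIA, with 21 of its 22 other arrays below it. It had 3.81 and 3.76 in ANE, 4.09 and 3.77 in PLA and 6.15 and 5.45 in NOCIA (-1.94 ± 0.31), which is a description with no test. Its brightest probe set gave -0.91 ± 0.29 (adjusted p = 0.1), also without overlap. Per2 gave -0.47 ± 0.15 (adjusted p = 0.101), Nr1d1 -0.50 ± 0.18 (adjusted p = 0.152) and Bmal1 0.26 ± 0.29. The list had a median of -0.47, -0.55 in ANE and -0.18 in PLA, and 7 members were lower without overlap (20% of all probe sets were). The hour of blood sampling is not given in the sources used here.

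Stress and signalling genes gave single calls. The share called was 6.25% of 16 Growth arrest genes and 5.56% of 18 immediate early genes. It was 8.33% of 12 Toll-like receptor genes and 7.69% of 13 genes of IL-10, STAT3 and SOCS. Beside 3.74% of all genes, 1 call does not set such a list apart. Glucocorticoid-response genes had 0 of 13 called and a median of -0.27, with Fkbp5 at 0.93 ± 0.34 (adjusted p = 0.153) and Nr3c1, the receptor itself, at -0.14 ± 0.28. In the Growth arrest list 15 of 16 were below 0 (4782 of all 11057 genes were), and Ddit3 alone was called. Gadd45b, a damage-response gene, was at 9.62 and 9.62 in ANE, 10.34 and 10.65 in PLA and 10.99 and 10.76 in NOCIA (-0.82 ± 0.40, adjusted p = 0.313). Of 18 immediate early genes Jun alone was called, Fos gave -0.69 ± 0.43 with a second probe set at 0.49, and Egr1 0.59 ± 0.38. Traf6, the ligase through which Toll-like receptors reach NF-kB, fell by 1.24 ± 0.28 (adjusted p = 0.0263), from 11.22 and 10.73 in NOCIA to 10.28 and 10.05 in PLA and 9.05 and 9.57 in ANE. Its 3 other probe sets were called too, at -1.42 to -1.28. With 1 of the 6 arrays left out, the Traf6 call at -1.24 held only without ANE replicate 2. The receptor Tlr2 gave 0.69 ± 0.78 and the adaptor Myd88 0.11 ± 0.25. Socs1, a brake on cytokine signalling, rose by 0.95 ± 0.25 (adjusted p = 0.0472), while Socs3 gave 0.58 ± 0.45 and Stat3 -0.83 ± 0.27 (adjusted p = 0.111), with a second Stat3 probe set called at -0.92. The Socs1 call, like 8 others of the 49 named called probe sets, was lost with any of the 6 arrays left out.

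Genes of the nuclear pore, the channel between nucleus and cytoplasm, were also listed after values were seen, as were those of the mitochondrial ribosome, and their counts are a description. Of 32 measured genes 6 fell (18.8%, beside 2.23% of all genes lower) and 0 rose, with a median of -0.30, -0.28 in ANE and -0.32 in PLA, that was -0.19 without NOCIA replicate 1. Nup155, of the inner ring, was at 6.61 and 7.03 in ANE, 7.11 and 6.86 in PLA and 8.57 and 8.27 in NOCIA (-1.52 ± 0.26, adjusted p = 0.00829). Ahctf1, which seeds pores after cell division, fell by 1.31 ± 0.23 (adjusted p = 0.0101), and Nup50, Ranbp2, Nup160 and Nup205 by 0.72 to 1.08. All 6 calls were lost without NOCIA replicate 1, and that of Nup205 with any of the 6 arrays left out and with the replicate block. Nup98, of the outer side, gave -0.07 at the probe set read and -1.32, called, at another. Of 73 genes of the mitochondrial ribosome 4 were called (5.48%, near the 3.74% of all genes), Mrpl17, Mrpl34, Mrpl54 and Mrps28, all higher, at 0.67 to 0.88. The median was -0.01, which was 0.09 without NOCIA replicate 1 and -0.09 without replicate 2. All 4 calls were lost without either NOCIA array, and those of Mrpl17 and Mrpl54 with any of the 6 arrays left out and with the replicate block. Of the cytosolic ribosome 0 of 10 genes were called, with differences between -0.09 and 0.03, and the respiratory chain had a median of 0.18 with 0 of 20 called, 0.10 without NOCIA replicate 2.

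Of the cell cycle genes Cks2, a partner of the cyclin-dependent kinases, fell by 1.16 ± 0.21 (adjusted p = 0.0113), with ANE at 9.57 and 9.43, PLA at 10.67 and 10.56 and NOCIA at 11.55 and 10.87. No other member was called, so the share was 5.26%, beside 3.74% of all genes. Of the 19 members 14 had a difference above 0, and the list median was 0.33, with Mki67 at 0.49 ± 0.35. Without NOCIA replicate 1 the median was 0.13 and the Cks2 call was lost, and without ANE replicate 2 the median was 0.21. The Cks2 call was also lost with ANE and PLA fitted as 1 group of 4 arrays. Of 15 genes of adenosine handling 0 were called, 7 had a difference above 0, and the median was -0.13. It was -0.06 without NOCIA replicate 2, -0.04 without ANE replicate 2 and -0.07 without PLA replicate 2. The receptor Adora2a was at 7.64 and 7.92 in ANE, 8.73 and 8.40 in PLA and 8.24 and 8.42 in NOCIA, so that the arms lay on either side of NOCIA (-0.15 ± 0.31, adjusted p = 0.868). Ada, which breaks adenosine down, gave 0.13 ± 0.34 (adjusted p = 0.902), and Adora3 was not named on the array. Interferon-stimulated genes gave 0 of 23 called, with a median of -0.03 that was -0.37 without NOCIA replicate 1 and 0.34 without replicate 2.

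**Figure D5:**
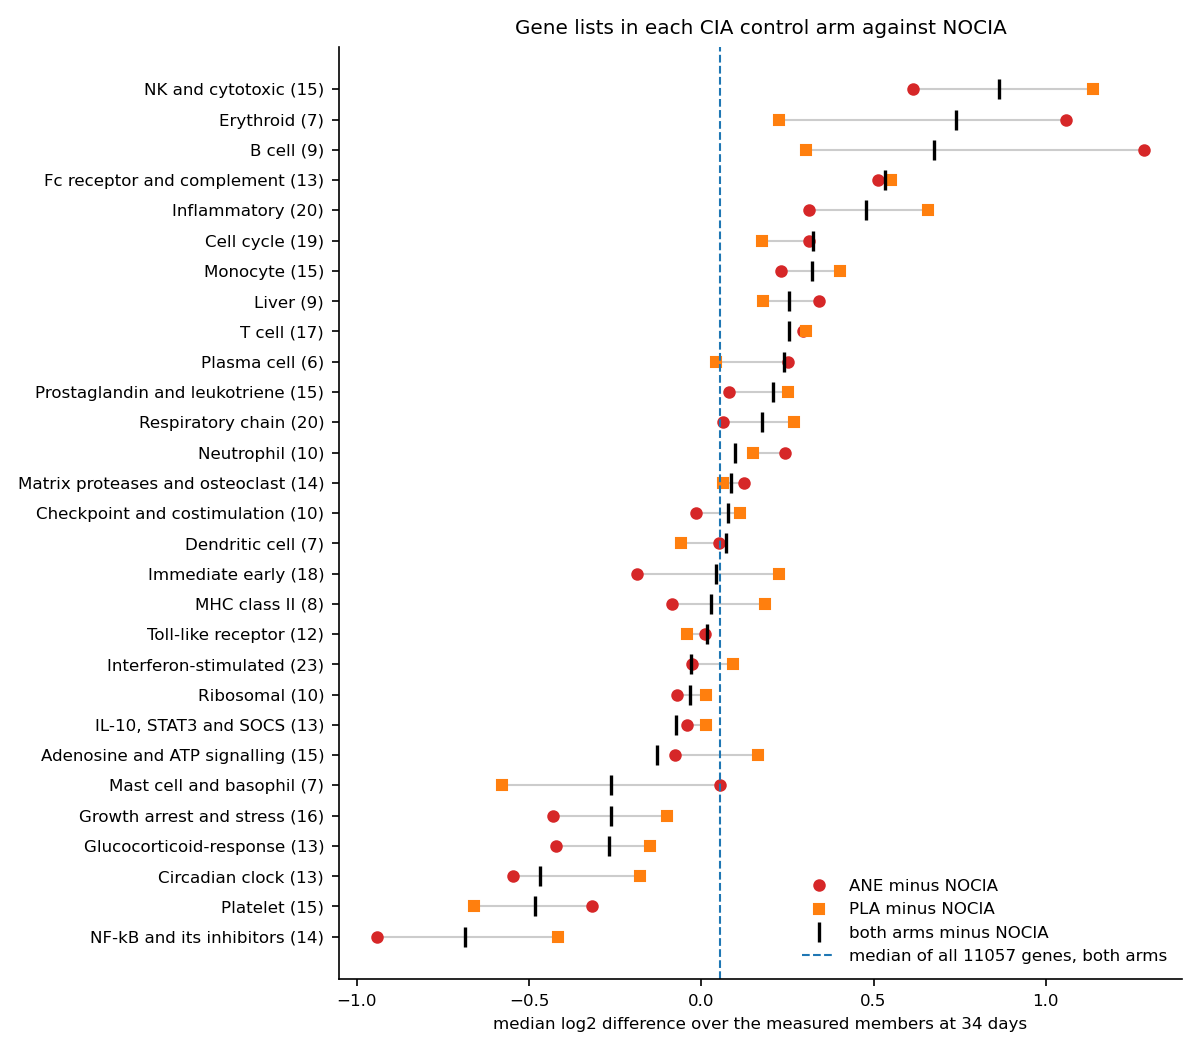
Median log2 difference from NOCIA at 34 days over the measured members (number in brackets) of 29 gene lists; circles are ANE, squares PLA, ticks both arms, and the dashed line the median of all 11057 genes. Natural killer genes lie at the top (0.86) and NF-kB genes at the bottom (-0.69), and the arms lie farthest apart for B cell genes (1.28 and 0.31).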

How the data were processed

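Total RNA of PBMC from 24 rats (12 groups of 2, each array a separate rat killed at sampling) was labelled with a 3' kit and hybridised to Affymetrix rat arrays. The authors deposited log2 values after RMA, and their methods also describe MAS5 with detection calls. No source used here gives their versions. Array medians lay between 5.49 and 5.58, and the number of arrays limits the precision. Of 31099 probe sets the 57 control ones were left out. Of the others, those brighter in 2 or more arrays than 40% of the values of that array were kept, 20690 in all. Of the 31099, 20832 had 1 gene symbol, 436 several and 9831 none, and 20764 symbols were checked against the RefSeq gene table.

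limma 3.58.1 in R 4.3.3 fitted 1 coefficient per group over all 24 arrays (12 residual degrees of freedom), with empirical Bayes and Benjamini-Hochberg adjustment over all 20690 probe sets. Members of gene lists were read at the probe set with the highest mean. Genes were named by rule, as the 12 highest and 12 lowest called differences without overlap, the first 4 measured members and the called members of each list, and genes measured by other assays in the study. Further list members, and the genes called in PLA, were named after their values were seen. The comparison and the lists were chosen with earlier results of these data known. Steps were tested on simulated data. Promoters and motifs were read with Python 3.11.15. Alternatives were the replicate number as a block, fitting only the groups compared, no filter or one at 60%, limma-trend, quantile normalization, array weights, the 4 arrays that stood apart left out, both arms as 1 group, and each array left out.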

Additional observations from a re-analysis of the deposited data

Results flagged for a closer look

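For 17 of the 24 genes named by the size of their difference, the 34-day difference between CIA controls and NOCIA differed from the baseline difference between CIA and NOCIA in limma (adjusted p under 0.05). Over all probe sets 1.4% did so. The genes were chosen by the 34-day difference, which is part of this change, so the choice favours the outcome and the count is a description. Among genes higher in CIA at 34 days the change between the differences was 2.60 for Glce, 2.40 for Rps6ka3, 2.45 for LOC100909928, 2.74 for Bcl11a, 2.30 for Tmpo and 1.73 for Cxxc5. Among genes lower in CIA it was -2.88 for Rictor, -2.23 for Nr1d2, -3.08 for Jun, -2.02 for Grhl1, -2.60 for Edc3, -1.97 for Cars1, -2.91 for Armcx5, -1.92 for Mid2, -2.25 for Snap23, -1.78 for Slc7a1 and -2.00 for Fhl2. Nr1d2 and Grhl1 passed the filter on dim probe sets only through NOCIA, so that their values are a description.

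In 5 of 167 named probe sets, 1 of the 4 CIA control arrays lay far from the other 3 (gap over range above Dixon's limit for 4 values). About 1 in 20 such groups pass by chance. The ratio was 0.861 for Nr1d2, 0.888 for Klrd1 and 0.903 for Il10, each high in PLA replicate 1, then 0.878 for Junb, high in PLA replicate 2, and 0.96 for Fcer1g, low in ANE replicate 2.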

How the results depend on the processing

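The counts of called probe sets depended on how the spread was estimated, and the cause was not tested. With only the groups compared fitted, 4305 were called for both arms against NOCIA, 4209 for ANE, 1697 for PLA, 13 for ANE against PLA and 4146 for the 34-day minus the baseline difference. With array weights the counts were 5032, 4587, 3550, 85 and 4675, and without the 4 arrays that stood apart 4460, 4401, 2068, 5 and 3327. Quantile normalization gave 1320 for both arms (555 higher and 765 lower, against 260 and 501), 1452 for ANE, 87 for PLA and 685 for the change from baseline, and the stricter filter 3 for PLA. Leaving out 1 array, a smaller set of samples, gave 5 to 402 for both arms, 6 to 212 for ANE, 1 to 9 for PLA, 0 to 1 for ANE against PLA and 3 to 153 for the change from baseline. For both arms the counts were 5 and 124 without NOCIA replicates 1 and 2, 171 and 402 without ANE replicates 1 and 2, and 261 and 156 without PLA replicates 1 and 2. For ANE they were 6 and 212 without the NOCIA arrays in the same order, and 55 and 76 without its own, and for PLA 3 and 9, and 2 and 1. Of 49 named called probe sets, 2 were still called without NOCIA replicate 1 (Mid2, and Grhl1, which passed the filter only through NOCIA), 22 without NOCIA replicate 2, 9 were lost with any of the 6 arrays left out, and 0 turned direction in any of these settings. Leaving out each array was added for the single arms and the change from baseline after the data were seen.

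Same-numbered arrays are not from the same rat, and the correlations of their deviations were -0.10 for ANE with PLA, -0.37 for ANE with NOCIA and 0.13 for PLA with NOCIA, so the numbers were not taken to pair the samples. With the replicate number as a block, 689 probe sets were called for both arms, 801 for ANE, 10 for PLA, 0 for ANE against PLA and 245 for the change from baseline, and 45 of the 49 named calls held.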
